A study of Mus musculus with 6 samples.

Results

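The genes of glycolysis, galactose use and pyruvate metabolism were compared between the prefrontal cortex of BTBR and C57BL/6J mice, from glucose uptake to lactate export and the pyruvate dehydrogenase complex. The set has 37 genes, taken by symbol from the array's annotation, and they are read by 71 of the 41174 probes on the array that are not controls, out of 21157 named genes in all. The file's Pkm is the gene also known as Pkm2. The array's Pgm1 and Pgm2 carry the opposite symbols in the current RefSeq table, where they are Pgm2 and Pgm1, and the array's symbols are kept below. Of the 71 probes, 69 cleared the background filter, which asked that the scanner software call a probe well above background in 3 or more of the 6 mice. These 69 were tested, and every one of the 37 genes had at least 1 tested probe. The 2 untested probes belong to Galm and Slc2a3, which were both tested with other probes. For 36 genes the brightest probe was well above background on all 6 arrays.

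Glycolysis splits glucose into pyruvate and so supplies ATP and the fuel of the mitochondria. Pyruvate then either leaves as lactate, through lactate dehydrogenase and the monocarboxylate transporters, or enters the citric acid cycle through the pyruvate dehydrogenase complex, which a family of kinases switches off. Galactose joins the same route through the Leloir pathway, in which it is phosphorylated and turned into a glucose phosphate. In brain, glucose is the main fuel, and astrocytes and neurons are thought to exchange lactate.

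The study hybridised RNA from 3 BTBR and 3 C57BL/6J mice to Agilent 1-colour arrays, 1 array to a mouse, to describe what distinguishes the prefrontal cortex of BTBR mice, an inbred strain studied as a model of autism-like behaviour. BTBR mice carry the genotype BTBR T+ Itpr3tf/J. C57BL/6J mice were wild type. All were males of 5 months, without drug treatment, and the whole prefrontal cortex was frozen after dissection. The strain-background label of the BTBR samples reads C57BL/6J, although their titles and genotype name BTBR. The strains differ across the whole genome, so no difference below can be assigned to one locus. In this bulk tissue, fewer cells of a type and less RNA per cell cannot be told apart.

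A level below is the log2 signal relative to its array's 75th percentile, so 0 is that percentile's signal, and levels are not compared between probes. A difference is the BTBR mean minus the C57BL/6J mean, on the log2 scale. It was tested with limma over all 30011 tested probes, with Benjamini-Hochberg adjustment and a threshold of 0.05. The arrays had between 28100 and 30665 probes well above background, none saturated. Replicates 1 and 2 of each strain lay on one slide and replicate 3 of each on another. All 7 neuronal markers and all 6 cortical layer markers were tested, and none passed. Of 7 myelin markers, Mag and Opalin passed, both lower in BTBR, and the list's summed linear signal was 101 to 114 in BTBR arrays and 138 to 172 in C57BL/6J arrays. Of 7 microglial markers 1 passed, Cx3cr1, higher, while the list ran from -0.71 to 1.22 (median 0.01). Of 7 astrocyte markers 1 passed, Gfap, lower, while the list ran from -1.21 to 0.17 (median -0.02). The striatal list, 8 genes, summed to 16.7, 59.1 and 13.8 in BTBR and to 23.8, 30.7 and 192 in C57BL/6J, so C57BL/6J replicate 3 and BTBR replicate 2 stood above the other mice of their strains. Some results are therefore also given without both arrays. Other lists were uneven too. The choroid plexus list, 3 genes tested, summed to 5.98 in C57BL/6J replicate 1 and to 0.32 to 1.95 in the other mice. The red blood cell list, 2 genes tested, summed to 103 in BTBR replicate 2 and to 42.9 to 55.2 in the others. The part of these markers in the results was not tested.

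One gene of the 37, Galk2, was far lower in BTBR, and 35 of the others differed by -0.32 to 0.49 on the log2 scale by their brightest probes. The remaining gene, Pgm1, was well above background on only 1 of 3 BTBR arrays and is described with the galactose genes. Of the 69 probes, 2 passed the test, against 5.44% of all tested probes. One was the Galk2 probe, lower (all probes lower, 3.25%), and the other 1 of the 3 Slc16a1 probes, higher (all probes higher, 2.19%). Taking each gene by its brightest probe, 1 of 37 passed (2.70%), against 5.29% of the 16548 genes tested, of which 2.03% were higher and 3.26% lower. The median difference was 0.03 over the 37 genes and 0.01 over all genes, with 22 means higher and 15 lower in BTBR, where 51.8% of all genes were higher and 48.2% lower; up to 8 of the 37 changed sign with the scaling. The median size of the difference, sign ignored, was 0.113 in the set and 0.15 over all genes, and the median pooled SD was 0.14 against 0.174. The 95% interval lay within 1 log2 unit of 0 in 34 of the 37 genes (91.9%, all genes 82.8%), the exceptions being Galk2, Pdk1 and Pgm1. It lay within 0.5 in 21 (56.8%, all genes 45.0%). At an unadjusted p under 0.05 stood 5 genes, or 13.5% against 16.2% of all genes.

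**Figure D1:**
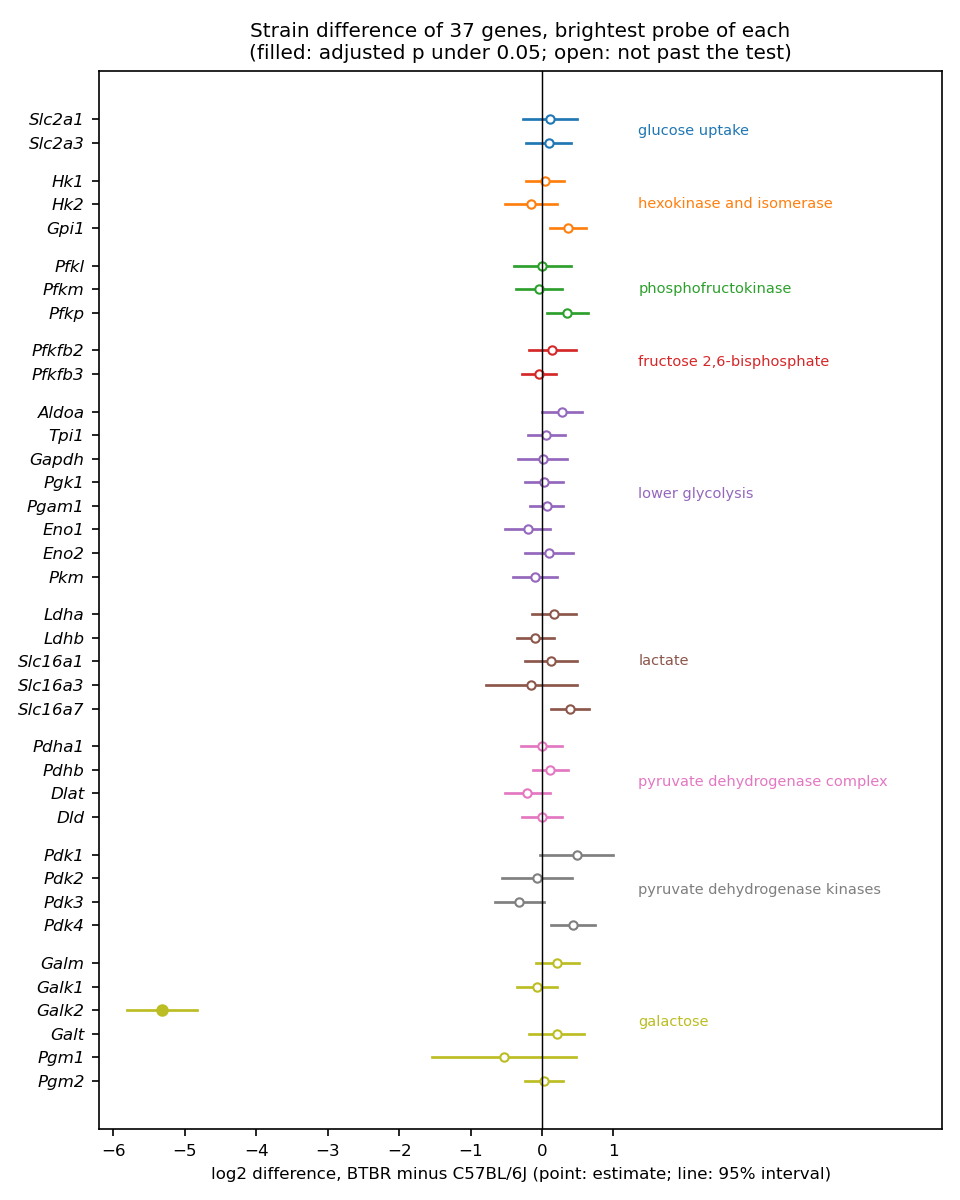
Difference in log2 signal, BTBR minus C57BL/6J, for the brightest probe of each of the 37 genes, grouped by step. Points are estimates from 3 arrays a strain, lines 95% intervals; the filled point marks the 1 gene past the test, Galk2 at -5.32. Of the others 35 lie between -0.32 and 0.49, and Pgm1, mostly not well above background in BTBR, has the widest interval.

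The galactose genes held the largest difference. Galk2 encodes a kinase of the galactokinase family, known in human to prefer N-acetylgalactosamine over galactose. Its 1 probe lies on mouse chromosome 2 (mm9, chr2:125809174-125809233, plus strand), and its 60 bases are shown because the result rests on them alone:
Galk2: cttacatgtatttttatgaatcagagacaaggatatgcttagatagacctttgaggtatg
The levels were -5.07, -4.55 and -5.18 in BTBR, against 0.60, 0.38 and 0.16 in C57BL/6J. The strains were thus widely apart, with no overlap. The scanner software called the probe well above background on every array. The BTBR levels were dim, however. The lowest levels so called for any probe on these BTBR arrays were -6.42, -5.83 and -6.92, in the same order. The size of the difference, given next, is therefore less certain than its direction. The difference was -5.32 ± 0.20 (SE, n = 3 a strain), 39.8-fold lower in BTBR, with a limma adjusted p of 8.99e-05. It was -5.30 on the first slide and -5.34 on the second. Without C57BL/6J replicate 3 and BTBR replicate 2 it was -5.62. The call was kept under all 18 alternative settings, with differences between -5.62 and -2.94; the value nearest 0 came from the authors' own processed matrix, and normexp background correction gave -3.79. With 1 probe, a strain difference in the sequence it binds cannot be told apart from a difference in RNA.

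The tested probes around Galk2 did not share its fall. Probes 4.0 kb before and 20.3 kb after it were not tested, and the nearest tested probe lay 106 kb away. Of 17 other probes within 500 kb, 9 were tested, and these differed by -0.39 to 0.86. The 1 that passed was that of Fgf7, a growth factor gene named after its values were seen, 106 kb away, which was higher in BTBR (0.86 ± 0.17, SE, limma adjusted p = 0.042). Its levels were -5.02, -5.09 and -5.61 in BTBR, against -6.16, -6.08 and -6.08 in C57BL/6J. With normexp correction its difference was -0.20, and it lost its call in 10 other settings.

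The other galactose genes gave no call. Galk1, the galactokinase proper and first kinase of the Leloir pathway, had levels of 1.20, 1.01 and 1.31 in BTBR and of 1.29, 1.24 and 1.22 in C57BL/6J. The strains overlapped, the difference was -0.08 and its 95% interval ran from -0.36 to 0.20. Galt, the uridylyltransferase that follows it, differed by 0.20 (95% interval -0.18 to 0.59). Galm, the mutarotase that readies galactose for the kinase, differed by 0.22, and by -0.21 with normexp correction. Of the genes named as phosphoglucomutases, Pgm2 differed by 0.03 with an SD of 0.02 in BTBR and 0.13 in C57BL/6J. Pgm1 differed by -0.53 with an interval from -1.53 to 0.48, and only 1 of 3 BTBR arrays against 3 of 3 C57BL/6J arrays read it well above background. With 1 mouse left out its difference moved between -0.83 without BTBR replicate 1 and -0.14 without C57BL/6J replicate 2.

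**Figure D2:**
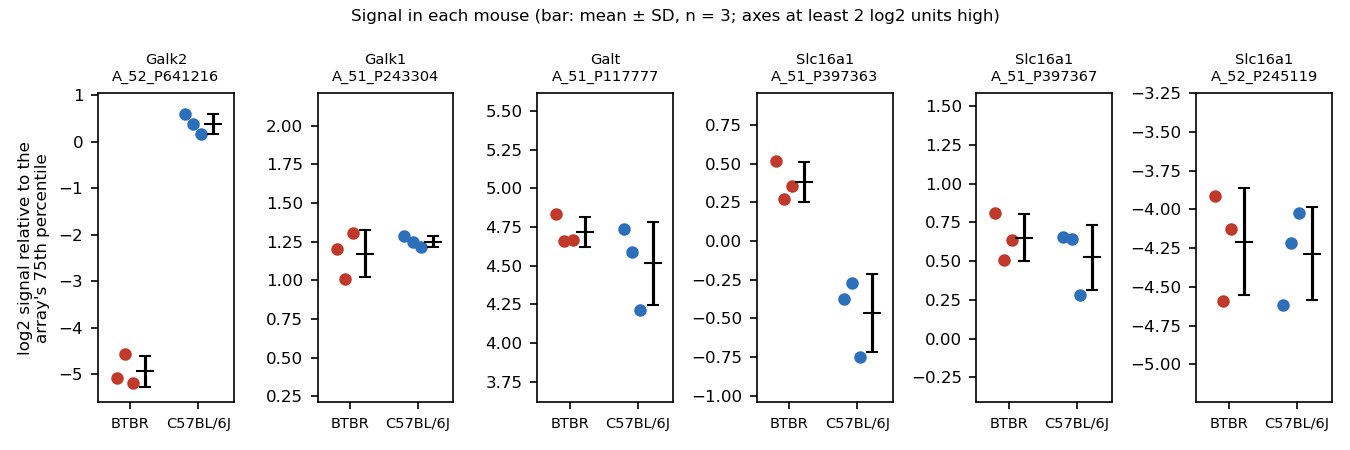
Log2 signal relative to the array's 75th percentile in each mouse, BTBR left and C57BL/6J right, for Galk2, Galk1, Galt and the 3 Slc16a1 probes; bars give mean ± SD (n = 3), and each panel has its own axis. Galk2 averaged -4.94 in BTBR and 0.38 in C57BL/6J, while Galk1 and Galt overlapped, as did 2 of the 3 Slc16a1 probes.

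Lactate release and uptake held the second called probe. Slc16a1, which encodes the monocarboxylate transporter MCT1, is read by 3 probes on the plus strand of chromosome 3 (mm9), printed because their results part:
Slc16a1, A_51_P397363, chr3:104460835-104460895: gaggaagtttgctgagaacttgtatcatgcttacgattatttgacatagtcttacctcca
Slc16a1, A_51_P397367, chr3:104460941-104461000: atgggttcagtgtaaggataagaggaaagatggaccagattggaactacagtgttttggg
Slc16a1, A_52_P245119, chr3:104457083-104457142: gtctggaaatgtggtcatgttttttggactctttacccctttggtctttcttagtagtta
Probe A_51_P397363 had levels of 0.52, 0.27 and 0.35 in BTBR, against -0.38, -0.27 and -0.75 in C57BL/6J. The strains did not overlap. The difference was 0.85 ± 0.16 (SE), 1.80-fold higher in BTBR, with a limma adjusted p of 0.0312. It was 0.72 on the first slide and 1.10 on the second. The brightest probe, A_51_P397367, lies 45 bases further on and read 0.81, 0.51 and 0.64 in BTBR, against 0.65, 0.64 and 0.28 in C57BL/6J. There the strains overlapped, and the difference was 0.13 (95% interval -0.23 to 0.49). The remaining probe differed by 0.08 (95% interval -0.47 to 0.63).

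The called Slc16a1 probe is annotated to 61 bases of mm9 although it is 60 bases long. Its call held in 8 of 18 alternative settings, with the direction the same in all 18. It was kept without C57BL/6J replicate 3 (adjusted p = 0.045) but lost without any one of the other 5 mice (adjusted p from 0.0599 to 0.139), and also without C57BL/6J replicate 3 and BTBR replicate 2 together (difference 0.76, adjusted p = 0.0675).

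The other lactate genes did not pass. Slc16a7, the high-affinity transporter MCT2 found mainly on neurons, had levels of -0.96, -0.88 and -1.02 in BTBR, against -1.20, -1.38 and -1.44 in C57BL/6J. Every BTBR mouse lay above every C57BL/6J mouse, with a difference of 0.39 ± 0.11 (SE) and a limma adjusted p of 0.129. In the authors' matrix this gene passed (0.27, adjusted p = 0.0462), and its other probe differed by -0.14. Slc16a3, the lactate exporter MCT4, differed by -0.15, with -0.81, -0.68 and -0.65 in BTBR and -0.77, -0.97 and 0.04 in C57BL/6J. Here C57BL/6J replicate 3 alone lay apart from the rest, and without it and BTBR replicate 2 the difference was 0.14. The 2 probes of Ldha, the dehydrogenase subunit that favours lactate formation, differed by 0.17 and 0.16. Ldhb, the heart-type subunit, differed by -0.09 (95% interval -0.35 to 0.17).

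Uptake and the first enzymatic steps did not pass the test in any gene. Slc2a1, the glucose transporter GLUT1 of the blood-brain barrier and astrocytes, differed by 0.11 and, without C57BL/6J replicate 3 and BTBR replicate 2, by -0.10. Slc2a3, the neuronal transporter GLUT3, differed by 0.10. An untested Slc2a3 probe was well above background on 0 of 3 BTBR arrays and on 2 of 3 C57BL/6J arrays. It read -8.08, -8.12 and -8.68 in BTBR, against -7.20, -6.53 and -6.78 in C57BL/6J, and passed as lower when dim probes were kept (adjusted p = 0.0414). Hk1, the brain's main hexokinase, had 6 tested probes with differences from 0.00 to 0.28. Hk2, the insulin-responsive hexokinase of muscle, differed by -0.15.

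Gpi1, glucose phosphate isomerase, was the step's largest difference. Its levels were 7.15, 7.22 and 7.02 in BTBR, against 6.79, 6.73 and 6.79 in C57BL/6J. The strains did not overlap, and the difference was 0.36 ± 0.10 (SE, limma adjusted p = 0.129). It passed only when the prior variance followed intensity (adjusted p = 0.025). A dimmer Gpi1 probe differed by 0.39 but overlapped between strains.

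The phosphofructokinases carry the committed step of glycolysis. The liver-type Pfkl differed by 0.01 and the muscle-type Pfkm by -0.04. Pfkp, the platelet-type subunit also abundant in brain, is read by 3 probes on the minus strand of chromosome 13 (mm9). They are printed because their differences varied in size and sign, though none passed:
Pfkp, A_51_P378856, chr13:6581718-6583872: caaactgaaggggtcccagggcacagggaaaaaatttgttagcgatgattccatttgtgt
Pfkp, A_52_P572045, chr13:6579124-6579183: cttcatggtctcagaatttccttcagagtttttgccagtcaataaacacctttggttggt
Pfkp, A_52_P223083, chr13:6588296-6588355: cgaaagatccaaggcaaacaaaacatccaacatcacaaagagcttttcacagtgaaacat
The first, whose 60 bases are spread over 2155 bases of mm9, is the brightest. It read 2.91, 2.97 and 2.74 in BTBR, against 2.46, 2.66 and 2.45 in C57BL/6J, a difference of 0.35 ± 0.12 (SE, limma adjusted p = 0.196). The second differed by -0.20 ± 0.13 and overlapped. The third read 1.48, 2.20 and 1.19 in BTBR, against 1.03, 0.53 and 0.94 in C57BL/6J, a difference of 0.79 ± 0.28 (limma adjusted p = 0.222). Its strains did not overlap, but BTBR replicate 2 lay well above the other BTBR mice. Pfkfb2 and Pfkfb3, bifunctional enzymes that make and remove the activator of phosphofructokinase, differed by 0.14 and -0.04, and their 7 probes by -0.12 to 0.25.

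None of the 8 genes of lower glycolysis passed, and the direction of several depended on the scaling. The aldolase gene Aldoa had levels of 8.82, 8.80 and 8.59 in BTBR, against 8.34, 8.51 and 8.52 in C57BL/6J. The strains did not overlap and the difference was 0.28 (limma adjusted p = 0.308), 0.38 on the first slide and 0.07 on the second. On its other probe the strains overlapped, with a difference of 0.24, 0.37 on the first slide and -0.03 on the second. Under quantile normalization Aldoa, Tpi1, Gapdh, Pgk1 and Pgam1 all turned from above to below 0 (Aldoa to -0.05), and the authors' matrix likewise put these 5 below 0. The triose phosphate isomerase gene Tpi1 differed by 0.06 and the dehydrogenase gene Gapdh, often used as a loading control, by 0.01. Pgam1, a phosphoglycerate mutase, differed by 0.06 with SDs of 0.04 in BTBR and 0.01 in C57BL/6J. The enolase genes gave -0.20 for Eno1, which has a near-identical copy in mouse, and 0.10 for the neuronal Eno2. The pyruvate kinase gene Pkm differed by -0.10, and by -0.03 and 0.19 on its other probes.

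Pgk1, phosphoglycerate kinase, has probes placed on chromosome 3 (mm9, minus strand), although the gene lies on the X chromosome. They are printed because they overlap and so are not independent readings, with the 38 shared bases in capitals:
Pgk1, A_51_P182828, chr3:57906703-57906762: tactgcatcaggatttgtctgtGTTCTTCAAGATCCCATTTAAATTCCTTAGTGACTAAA
Pgk1, A_52_P600398, chr3:57906681-57906740: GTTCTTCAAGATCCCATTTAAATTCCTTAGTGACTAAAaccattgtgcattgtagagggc
They differed between strains by 0.03 and 0.02. Signal from the X-linked gene and from a near-identical copy cannot be told apart here.

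The pyruvate dehydrogenase complex gave no call in its 9 tested probes, which differed by -0.20 to 0.15. Pdha1 and Pdhb, the subunits of the decarboxylating enzyme, differed by 0.00 and 0.11. Dlat, the acetyltransferase core, differed by -0.20, with 2.41, 2.49 and 2.49 in BTBR and 2.89, 2.59 and 2.53 in C57BL/6J. The strains were apart by a narrow margin only. Dld, the dehydrogenase that the complex shares with other enzymes, differed by 0.00.

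Of the kinases that inactivate the complex, Pdk4 and Pdk1 were above and Pdk3 below in every BTBR mouse by their brightest probes, and none passed. Pdk4, the starvation- and glucocorticoid-responsive member, had levels of -0.04, 0.06 and -0.28 in BTBR, against -0.52, -0.44 and -0.63 in C57BL/6J. The difference was 0.44 ± 0.13 (SE, limma adjusted p = 0.133). Pdk1, a target of the hypoxia factor HIF, is read by 2 probes on the plus strand of chromosome 2 (mm9), printed because their signs differ:
Pdk1, A_52_P277654, chr2:71741820-71741879: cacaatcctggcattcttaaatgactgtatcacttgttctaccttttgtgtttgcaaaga
Pdk1, A_51_P406429, chr2:71739688-71739747: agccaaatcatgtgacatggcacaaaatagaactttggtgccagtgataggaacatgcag
The first read 2.14, 2.04 and 2.21 in BTBR, against 2.02, 1.70 and 1.20 in C57BL/6J. The C57BL/6J mice were spread widely, and the difference of 0.49 ± 0.21 (limma adjusted p = 0.32) was 0.23 on the first slide and 1.01 on the second. The second probe differed by -0.17 ± 0.22. Pdk3 differed by -0.32 and -0.22 on its probes, both without overlap between strains. Pdk2, the most widespread of the kinases, differed by -0.07, and by 0.13 without C57BL/6J replicate 3 and BTBR replicate 2.

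In all, by the brightest probe of each gene, the strains did not overlap in 12 of the 37 genes (32.4%), against 23.6% of all genes tested. In 8 of the 37 every BTBR mouse was higher (Aldoa, Gpi1, Pdhb, Pdk1, Pdk4, Pfkp, Pgam1, Slc16a7), against a smaller share, 11.2%, of all genes. In 4 of the 37 every BTBR mouse was lower (Dlat, Eno1, Galk2, Pdk3), against 12.4% of all genes. Aldoa, Gpi1, Pdhb, Pdk1, Pfkp, Slc16a7 and Dlat each had another tested probe on which the strains overlapped, while the other Pdk3 probe did not overlap. Probes of one gene gave different values, with ranges close to those over all genes. Of 21 genes with several tested probes, 9 had probes of both signs, a count not made over all genes. The range between probes exceeded 0.5 in 4, namely Pfkp (0.99), Slc16a1 (0.77), Pdk1 (0.66) and Slc16a7 (0.53). These 4 are 19.0% of the 21, against 17.6% of all 7146 such genes, and the median range was 0.187 against 0.191.

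**Figure D3:**
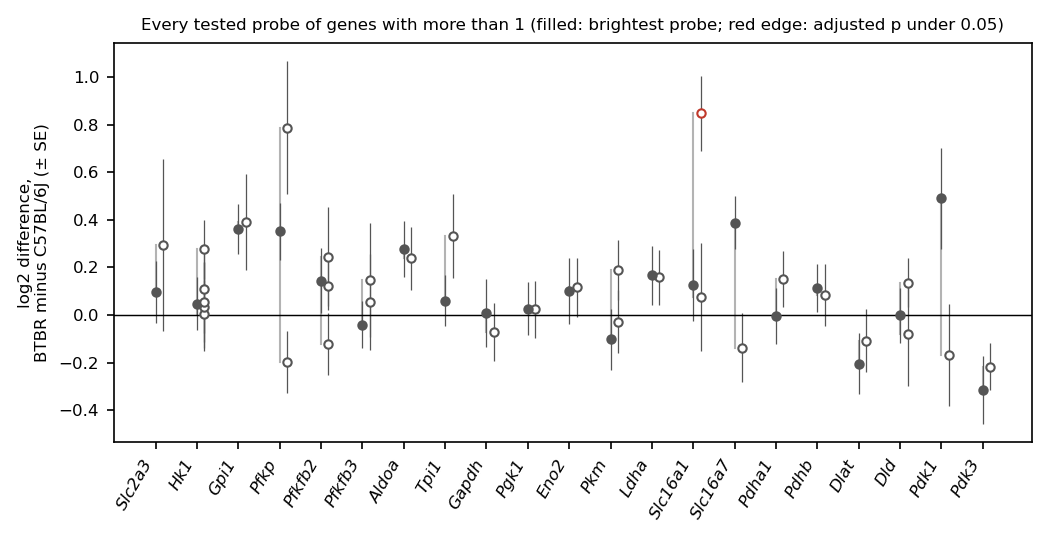
Difference in log2 signal, BTBR minus C57BL/6J, ± SE for every tested probe of the 21 genes with more than 1. Filled points are the brightest probe, the red edge marks the 1 called probe (Slc16a1, 0.85), and grey lines join probes of a gene; the widest ranges are those of Pfkp and Slc16a1.

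Genes of adjoining pathways that are outside the set were read in 8 lists (100 genes, 93 tested), of which 1 rose and 1 fell, together 2.15% against the 5.29% of all genes. Egln3, a HIF prolyl hydroxylase that is itself induced by low oxygen, was the 1 of 13 regulators that passed. Its levels were -0.94, -1.12 and -0.99 in BTBR, against -2.07, -2.00 and -2.27 in C57BL/6J, with no overlap. It rose by 1.10 ± 0.12 (SE), 2.14-fold, with a limma adjusted p of 0.00365. On its 1 tested probe the difference was 1.01 on the first slide and 1.28 on the second. The call was kept in 17 of 18 alternative settings and lost with normexp correction (0.81, adjusted p = 0.327). Hif1a, the oxygen-regulated subunit that Egln3 acts on, differed by -0.01.

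Slc2a5, the fructose transporter GLUT5, which in brain marks microglia, was the 1 of 14 transporters that passed. Its levels were 0.05, -0.10 and -0.21 in BTBR, against 0.44, 0.44 and 0.44 in C57BL/6J. The C57BL/6J mice were almost identical and all above the BTBR mice. It fell by 0.53 on the log2 scale, 1.44-fold (SE 0.11, limma adjusted p = 0.0437), on 1 tested probe. The difference was -0.47 on the first slide and -0.65 on the second. The call was lost in 12 of 18 alternative settings, among them with slide as a block (adjusted p = 0.0605), without any one mouse (adjusted p from 0.0908 to 0.160) and without C57BL/6J replicate 3 and BTBR replicate 2 (adjusted p = 0.170). The microglial marker list summed to 20.9 to 23.2 in BTBR and to 17.5 to 22.0 in C57BL/6J, and its part in the Slc2a5 result was not tested.

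No gene passed among 15 other glycolytic enzymes and isoforms (median 0.07), 9 genes of mitochondrial pyruvate entry (-0.13), 11 of nucleotide sugars and neighbouring galactose steps (-0.04), 16 of glycogen (0.04), 8 of the pentose phosphate pathway (-0.08) and 7 of gluconeogenesis and the glycerol shuttle (-0.04). The glycolytic list ran from -0.57 to 0.37, the pyruvate entry list from -0.25 to 0.10 and the nucleotide sugar list from -1.09 to 0.30. The glycogen list ran from -0.41 to 0.29, the pentose phosphate list from -0.60 to 0.18 and the gluconeogenesis list from -0.42 to 0.27. Mpc1 and Mpc2, which form the mitochondrial pyruvate carrier, differed by -0.11 and 0.09.

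**Figure D4:**
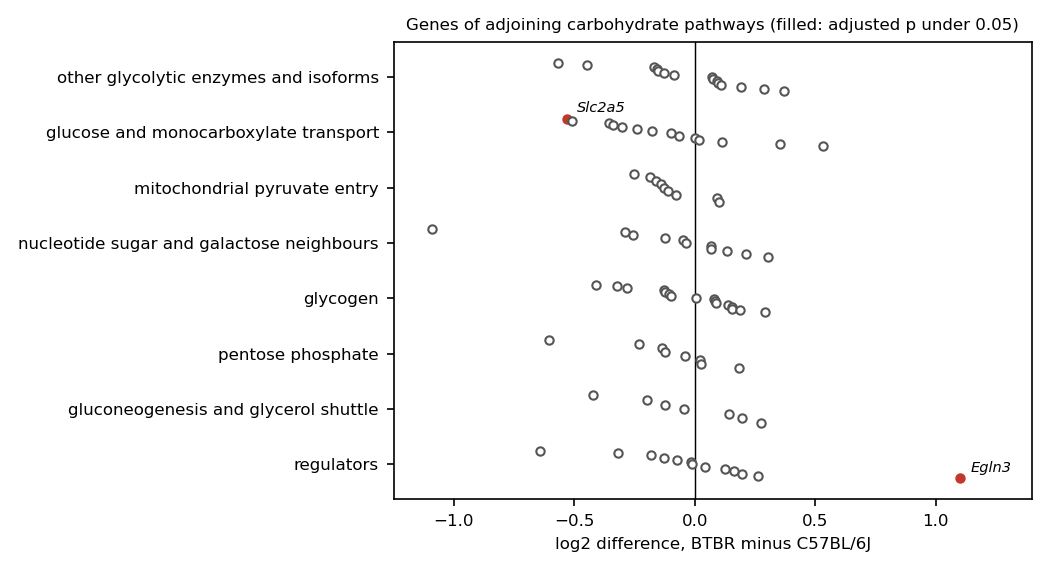
Difference in log2 signal, BTBR minus C57BL/6J, for the 93 tested genes of 8 adjoining lists, 1 row a list and 1 point a gene by its brightest probe. The 2 filled points are the genes past the test, Egln3 at 1.10 and Slc2a5 at -0.53.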

How the data were processed

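RNA of whole prefrontal cortex was labelled with Cy3 and hybridised to 1-colour Agilent arrays, 1 a mouse. Per the file headers, the deposited intensity values were extracted with Feature Extraction 10.7.3.1, while the submitters' processing notes name version 9.1. Probe positions are mm9, per the file headers. The authors also deposited a matrix of log2 values of unstated scaling, which served as an alternative.

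The processed intensity was taken to log2, less each array's 75th percentile. Spots of a probe were averaged without outlier flags, and probes well above background on 3 or more arrays were kept. Strains were compared per probe with limma 3.58.1 in R 4.3.3, with Benjamini-Hochberg adjustment over all kept probes. A gene is given by its brightest kept probe. Alternatives covered background, scaling, filters, blocks and left-out mice. Array precision is limited by the 3 mice a strain.

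Every member past the test is named with all its values, each other member by its brightest probe, and outside the set only genes past the test, at most 4 a list; other outside genes named were chosen after their values were seen. The members and lists were chosen with earlier results of these data known. Current symbols came from RefSeq's table.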

Additional observations from a re-analysis of the deposited data

How the results depend on the processing

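The Galk2 call held in all 18 alternative settings. The count of called probes, 2 in the report, was 1 with normexp background correction, with the replicate block, with slide 1 alone and without C57BL/6J replicate 3 and BTBR replicate 2, and 1 to 2 with 1 mouse left out. It was 3 in the authors' matrix and with an intensity trend, where the count of genes by brightest probe was 2 in place of 1 (Slc16a7 and Gpi1 were added). With 1 mouse left out that count was 1. The median difference of the set, 0.03, was -0.012 with quantile normalization, -0.0048 in the authors' matrix, 0.0977 with normexp, 0.0773 without both arrays and 0.00103 to 0.0857 with 1 mouse left out. Fgf7 turned to -0.20 with normexp. Over all probes, 1632 calls became 170 with normexp, of which 74.1% were lower against 59.7%, 922 with the replicate block, 1008 without both arrays and 858 to 1472 with 1 mouse left out. The sign of the brightest probe turned in 8 genes under quantile normalization. It turned in 6 each with normexp, in the authors' matrix and without both arrays, and these sets of genes differed. Without both arrays they were Pdha1, Pdk2, Pfkm, Pkm, Slc16a3 and Slc2a1. The causes were not tested.

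Same-numbered mice correlated in their deviations at 0.03, -0.17 and -0.08 over all tested probes. No mouse correlated best with its own number. The numbers were therefore not taken as a pairing, and the replicate block is given only here.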
